A study of Mus musculus with 4 samples.

Results

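The 42 genes described here are cell cycle and proliferation genes, chosen by name as genes of DNA replication and mitosis. Earlier results of these data were known when they were chosen. All 42 were found among the 49315 genes of the count table, and all 42 passed the filter on low values that left 14840 genes for comparison. Type 2 innate lymphoid cells (ILC2s), lymphocytes that lack antigen receptors and respond to epithelial alarmins, were sorted from mouse lungs and cultured in medium with IL-2, and their RNA was sequenced. WT mice were given PBS (group PBS-WT) or bleomycin (BLEO-WT), as were Hps1-/- mice (PBS-HPS1 and BLEO-HPS1), and each of the 4 groups has 1 library. WT mice were C57BL/6, and Hps1-/- mice lack a working copy of a gene mutated in Hermansky-Pudlak syndrome, a disorder of lysosome-related organelles in which lung fibrosis is common. Bleomycin breaks DNA and is given to mice to cause lung fibrosis. Age, sex and the number of mice pooled in each library were not given for these libraries. The labels give the route and time of bleomycin nowhere, and the study's methods describe more than one bleomycin protocol.

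A dividing cell copies its DNA in S phase and parts the copies in mitosis, and the genes for each step are transcribed mainly when they are needed. Before S phase, CDC6 and CDT1 load the MCM2-7 helicase onto replication origins. E2F transcription factors drive many of these genes, among them cyclin E. Later in the cycle, MYB and FOXM1 act on the promoters of mitotic genes, which often carry a CCAAT box, bound by NF-Y, and a cell cycle genes homology region (CHR). Resting lymphocytes transcribe little of either set, and IL-2 is a growth signal for activated lymphocytes, ILC2s included.

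Since no group had a replicate, no p-value for a treatment or genotype can be given, and the spread between mice is unknown. Levels are CPM, read counts divided by a library size that was scaled with edgeR's TMM factors, and differences are log2 ratios of CPM with 2 reads added as a prior count. Where a gene's ratio has a 95% interval, it is an exact Clopper-Pearson interval from the reads of both libraries. It covers counting error only, and PCR copies of 1 molecule count as several reads. A gene is counted as higher or lower when its ratio is at least 2-fold. Corrected ratios, named as such, are those from which a loess curve over transcript GC content and length, drawn through all genes, was subtracted.

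The libraries held 72513619 and 77703133 reads in PBS-WT and PBS-HPS1, and 87638154 and 77428740 reads in BLEO-WT and BLEO-HPS1, and came from 22405, 38873, 84166 and 128647 cells, in the same order. The mutated gene, Hps1, was at 38.3 CPM in PBS-WT and 48.4 in BLEO-WT, and at 16.6 in PBS-HPS1 and 21.3 in BLEO-HPS1, so both libraries labelled Hps1-/- were below both WT libraries. The defining genes of ILC2s were present, with Gata3 between 25.1 and 39.1 CPM and Il1rl1, the receptor for IL-33 used in the sort, between 23.8 and 40.9 CPM. The 17 ILC2 markers summed to 3522, 3142, 2992 and 2731 CPM in PBS-WT, PBS-HPS1, BLEO-WT, then BLEO-HPS1. Some genes of this list are shared with other leukocytes, so the sum does not give the share of ILC2s. Genes of cells that the sort should remove were also present. The 11 macrophage and monocyte markers summed to 13038.5, 8848, 19669 and 17735 CPM in the same order, with Lyz2, a macrophage and neutrophil lysozyme, between 6083 and 13145 CPM. The 8 fibroblast markers went from 178 and 317 CPM in PBS-WT and PBS-HPS1 to 557 and 2735 CPM in the bleomycin libraries of WT and Hps1-/- mice. The 10 T cell markers summed to 932, 740, 800 and 1386 CPM, and the 8 B cell markers to 170, 179, 170 and 390 CPM. The 8 endothelial markers lay between 798 and 1168 CPM, the 8 dendritic cell markers between 342 and 525 CPM, and the 8 NK cell markers between 104 and 366 CPM. The 8 neutrophil markers, between 357 and 1397 CPM, and the 8 epithelial markers, between 438 and 1257 CPM, were lowest in BLEO-HPS1. The 8 markers of mast cells, basophils and eosinophils summed to 46.4, 24.8, 7.97 and 4.23 CPM, and no marker of any list was at 0 in any library. The part of these other cells in the levels below was not tested, and a change in the share of dividing cells cannot be told apart from a change in RNA per cell.

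Reads on the 42 genes made up 0.156% and 0.140% of all reads in PBS-WT and PBS-HPS1, and 0.145% and 0.180% of all reads in BLEO-WT and BLEO-HPS1, and no gene had fewer than 93 reads in any library. Their levels summed to 1453 and 1101 CPM in PBS-WT and PBS-HPS1, and 1618 and 2208 CPM in BLEO-WT and BLEO-HPS1. Of the 42 genes, 29 were highest in BLEO-HPS1 and 32 were lowest in PBS-HPS1. For 26 genes the libraries stood in 1 order, with PBS-HPS1 lowest, PBS-WT next, BLEO-WT above it and BLEO-HPS1 highest. The TMM factors that levels are divided by fell in this same order, 1.27, 1.08, 0.895 and 0.816, which moves the levels of all genes towards it. As shares of reads, without these factors, the 42 genes were lower in BLEO-WT than in PBS-WT. None of these counts of genes was taken over all genes. Per kilobase of transcript, Pcna, the sliding clamp of the replication fork, had the highest mean level, with 116 and 95.6 CPM per kb in PBS-WT and PBS-HPS1, and 132 and 138 CPM per kb in BLEO-WT and BLEO-HPS1. Stmn1, a tubulin-binding protein, and Hmgb2, a chromatin protein, came next, and both are also transcribed outside the cell cycle. Cenpf, a kinetochore protein, was lowest per length, with 0.77, 0.62, 0.37 and 0.41 CPM per kb in the same order.

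**Figure D1:**
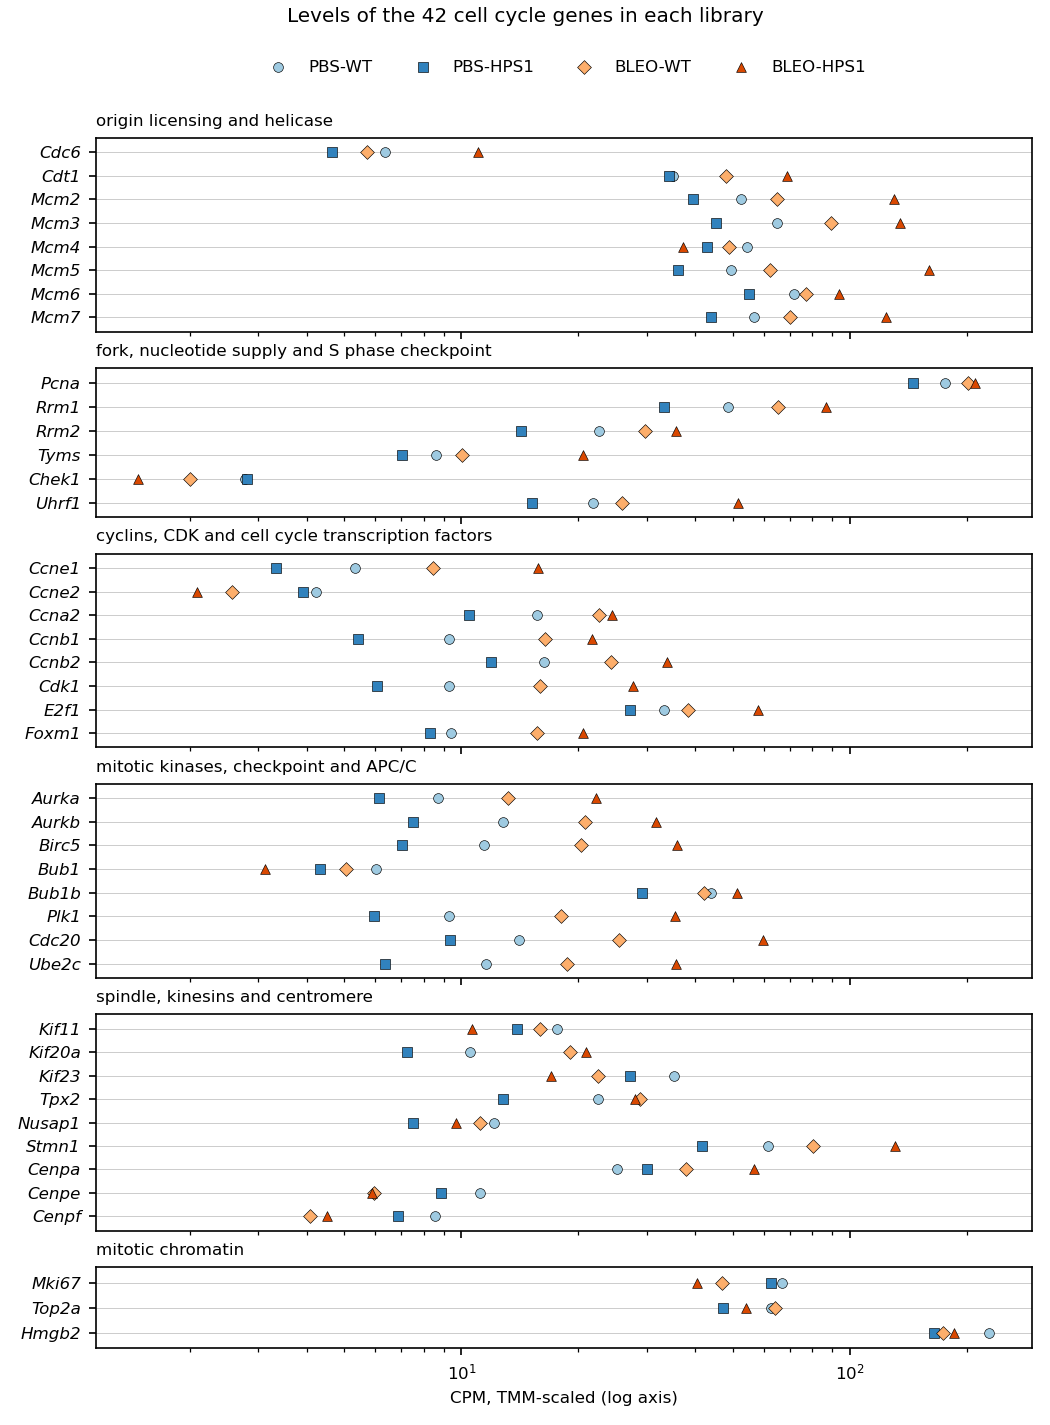
TMM-scaled CPM (log axis) of each of the 42 genes, grouped by role, with 1 marker for each library. BLEO-HPS1 lies to the right of the other libraries for 29 genes, and Ccne2, Chek1, Bub1, Mcm4, Kif11, Kif23 and Mki67 are among those where it lies to the left.

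The main comparison of treatment in Hps1-/- mice was BLEO-HPS1 against PBS-HPS1. Of the 42 genes, 26 were at least 2-fold higher in BLEO-HPS1 and 0 were at least 2-fold lower. That is 61.9% of them, beside 26.2% of all genes tested that were higher and 19.6% that were lower in this comparison. Their median log2 ratio was 1.27, the median of all genes was 0.25, and single genes ranged from -0.92 to 2.67. With total counts in place of TMM factors, the median of all genes moved to -0.43 and the split among the 42 genes became 13 higher and 8 lower. Relative to the median of all genes the 42 genes stood 1.02 higher with TMM factors and 1.06 higher with total counts. A scaling factor shifts all ratios of a comparison nearly alike, so this distance could barely differ between the scalings. The summed markers of fibroblasts, macrophages, T cells, B cells, NK cells, dendritic cells and endothelium were also higher in BLEO-HPS1 than in PBS-HPS1, although the median ratio of the NK cell markers was -0.50, and their part was not tested.

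Before correction for GC content and length, the genes of mitotic entry and exit had the largest ratios. Cdc20, the activator of the anaphase-promoting complex (APC/C), was at 14.0 and 9.35 CPM in PBS-WT and PBS-HPS1, and 25.5 and 59.6 CPM in BLEO-WT and BLEO-HPS1. The highest library thus held 6.36-fold more than PBS-HPS1 (log2 ratio 2.67, 95% interval 2.57 to 2.78). Plk1, a kinase of mitotic entry, was at 9.27, 5.97, 18.1 and 35.5 CPM in the same order, a 5.93-fold ratio of BLEO-HPS1 to PBS-HPS1 (log2 ratio 2.57, 2.44 to 2.71). Ube2c, the ubiquitin-conjugating enzyme of the APC/C, was at 11.6, 6.37, 18.7 and 35.8 CPM, with a log2 ratio of 2.48 (2.36 to 2.62). Both bleomycin libraries were above both PBS libraries for each of these genes. Birc5 (survivin) and Aurkb belong to the chromosomal passenger complex. Birc5 was at 11.4, 7.04, 20.4 and 35.8 CPM and Aurkb at 12.8, 7.50, 20.7 and 31.7 CPM. Their log2 ratios were 2.34 (2.22 to 2.47) and 2.07 (1.96 to 2.20). Aurka, a kinase of the spindle poles, had a ratio of 1.85. Of the 2 spindle checkpoint genes, Bub1b had a ratio of 0.81, whereas Bub1 went the other way before correction. Bub1 was at 6.04, 4.31, 5.05 and 3.12 CPM, a ratio of -0.46 (-0.72 to -0.22). Corrected ratios were on the same side, 0.885 for Bub1b and 0.81 for Bub1. Over the 8 mitotic kinase, checkpoint and APC/C genes, 6 were at least 2-fold higher and the median ratio was 2.21, or 1.69 after correction. The corrected ratios of Cdc20 (1.90), Plk1 (1.91) and Ube2c (1.85) were below that of Birc5 (2.82). They were also below those of Cdk1 (2.75), Ccnb1 (2.66) and Rrm1 (2.35), genes of other roles.

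Among cyclins and their regulators, 7 of 8 genes were at least 2-fold higher, with a median ratio of 1.41. Cdk1, the mitotic cyclin-dependent kinase, was at 9.27 and 6.05 CPM in PBS-WT and PBS-HPS1, and 16.0 and 27.7 CPM in BLEO-WT and BLEO-HPS1 (log2 ratio 2.19, 2.06 to 2.33, for the Hps1-/- libraries). Its partner Ccnb1 was at 9.27, 5.42, 16.4 and 21.7 CPM, with a ratio of 2.00. For both genes the libraries stood in the order described above, from PBS-HPS1 up to BLEO-HPS1. Ccnb2 (1.51), Foxm1 (1.31), Ccna2 (1.22) and E2f1 (1.09) also passed 2-fold. The exception was 1 of the 2 cyclin E genes, which act at the start of S phase. Ccne1 was at 5.31, 3.33, 8.44 and 15.8 CPM, a ratio of 2.23 (2.06 to 2.43), while Ccne2 was at 4.23, 3.92, 2.56 and 2.09 CPM, a ratio of -0.90 (-1.20 to -0.62). Their order across the libraries was close to opposite, with Ccne1 highest and Ccne2 lowest in BLEO-HPS1.

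Of the 8 origin licensing and helicase genes, 6 were at least 2-fold higher and the median ratio was 1.36. Mcm5 was at 49.4 and 36.1 CPM in PBS-WT and PBS-HPS1, and 62.3 and 160 CPM in BLEO-WT and BLEO-HPS1, with 10116 reads in the last library (log2 ratio 2.15, 2.09 to 2.20). Mcm2 was at 52.5, 39.4, 65.0 and 130 CPM, a ratio of 1.72. Mcm3 (1.57), Mcm7 (1.49), Cdc6 (1.24) and Cdt1 (1.01) passed 2-fold too, and Mcm6 did not, at 0.77. Mcm4 stood apart, at 54.2, 42.7, 48.7 and 37.2 CPM and a ratio of -0.20 (-0.27 to -0.13). The MCM2-7 proteins form a ring with 1 copy of each subunit. Per kilobase of transcript, the subunit with the highest level exceeded the lowest by 1.46-fold in PBS-WT and 1.40-fold in PBS-HPS1, Mcm3 over Mcm5 in both. The spread was 2.18-fold in BLEO-WT, Mcm3 over Mcm4, and 4.57-fold in BLEO-HPS1, where Mcm5 was at 47.4 and Mcm4 at 10.4 CPM per kb. The 6 transcripts were thus closest to equal levels in the PBS libraries and furthest apart in BLEO-HPS1. These levels were not corrected for GC content. Corrected ratios of BLEO-HPS1 to PBS-HPS1 were nearer to each other, 0.57 for Mcm4 and 1.96 for Mcm5.

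At the replication fork, 4 of 6 genes were at least 2-fold higher, with a median ratio of 1.36. Uhrf1, which guides maintenance DNA methylation behind the fork, was at 21.8, 15.2, 25.8 and 51.6 CPM in PBS-WT, PBS-HPS1, BLEO-WT, then BLEO-HPS1, a ratio of 1.76 (1.68 to 1.86). The enzymes of nucleotide supply were alike, with ratios of 1.54 for Tyms (thymidylate synthase), 1.39 for Rrm1 and 1.33 for Rrm2, the subunits of ribonucleotide reductase. Pcna, the most abundant per length, had a smaller ratio of 0.53 (0.50 to 0.57), which was below 0 with total counts. Chek1, the S phase checkpoint kinase, was at 2.77, 2.81, 2.00 and 1.47 CPM, a ratio of -0.92 (-1.29 to -0.59), and its 93 reads in BLEO-HPS1 were the fewest of any of the 42 genes.

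The spindle and chromatin genes were split. Stmn1 (1.65), Kif20a (1.53), a kinesin of cytokinesis, and Tpx2 (1.13), an activator of Aurora A, passed 2-fold, and Cenpa, the centromeric histone, did not, at 0.92. Kif11 (-0.39), Kif23 (-0.68), Cenpe (-0.59) and Cenpf (-0.60) had negative ratios, and Nusap1 was at 0.36. The median of these 9 genes was 0.36, with -0.28 for total counts and 1.01 for corrected ratios. None of the 3 mitotic chromatin genes passed 2-fold before correction, and 2 of them did after it. Mki67, which encodes the Ki-67 antigen used to stain dividing cells, was at 66.8 and 62.6 CPM in PBS-WT and PBS-HPS1, and 46.8 and 40.3 CPM in BLEO-WT and BLEO-HPS1, a ratio of -0.64 (-0.70 to -0.57) in the Hps1-/- libraries. Both bleomycin libraries were below both PBS libraries for Mki67, the reverse of Cdk1, Plk1 and Cdc20. Top2a, the topoisomerase that untangles chromosomes, was at 62.7, 47.1, 64.2 and 54.1 CPM, a ratio of 0.20. Hmgb2 was at 228, 164, 174 and 186 CPM, a ratio of 0.18. The ratios of Top2a, Hmgb2 and Nusap1 were below 0 with total counts.

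**Figure D2:**
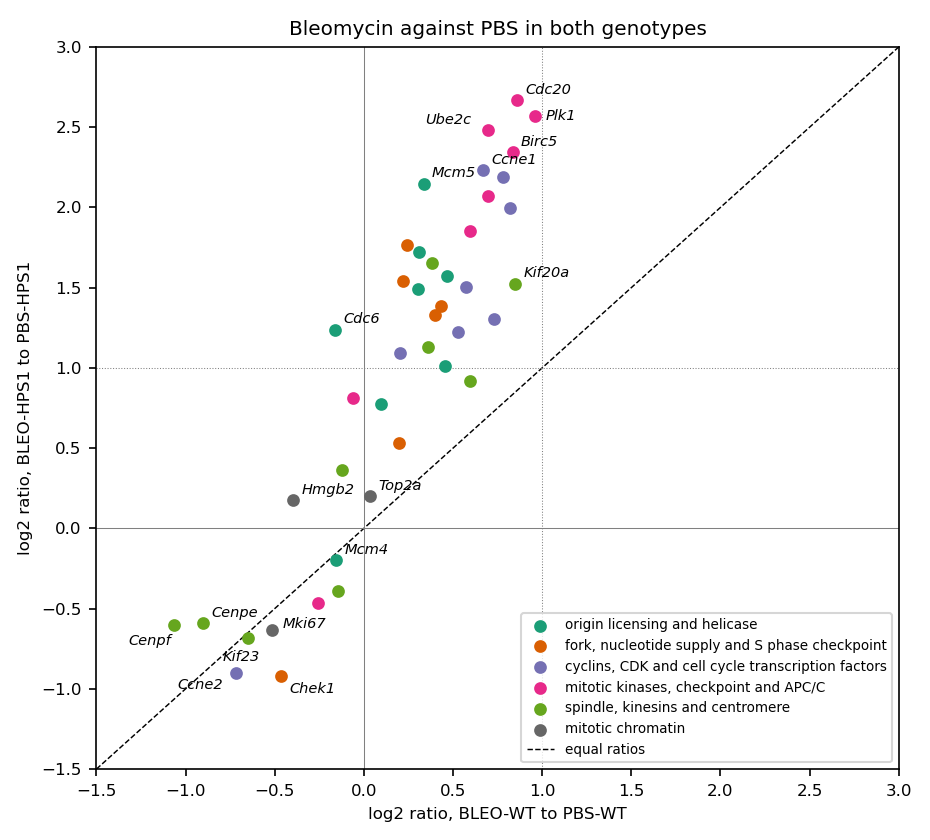
Log2 ratio of bleomycin to PBS in WT (horizontal) and Hps1-/- (vertical) libraries for the 42 genes, 1 point a gene, coloured by role, with dotted lines at 2-fold and a dashed line of equal ratios. In Hps1-/- libraries 26 genes lie above 2-fold, in WT libraries 0 do, and 35 lie above the dashed line. The ratio was also larger in Hps1-/- libraries for 8239 of all 14840 genes.

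In WT mice, BLEO-WT against PBS-WT, 0 of the 42 genes were at least 2-fold higher and 1 was at least 2-fold lower, beside 5.28% of all genes higher and 8.22% lower. The gene that was lower was Cenpf, at 8.53 CPM in PBS-WT and 4.07 in BLEO-WT (log2 ratio -1.06, -1.27 to -0.87). The median ratio was 0.32 (0.09 for all genes) and 29 genes were above 0, beside 8400 of all 14840 genes. The largest ratios were again of mitotic genes, 0.96 for Plk1, 0.86 for Cdc20, 0.85 for Kif20a, 0.83 for Birc5 and 0.82 for Ccnb1. The helicase genes lay between -0.15 for Mcm4 and 0.47 for Mcm3, and Cdc6 was at -0.16. Ccne2 (-0.72), Kif23 (-0.65), Mki67 (-0.51), Chek1 (-0.46), Cenpe (-0.90) and Bub1 (-0.26) were below 0 in WT as in Hps1-/- libraries. After correction 0 genes were lower and 1 was higher, Ccnb1 at 1.11. Cenpf was then at -0.44, and Ccne2 (0.33), Chek1 (0.17) and Bub1 (0.35) were above 0. With total counts the median was 0.06 and that of all genes -0.18.

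The difference between the bleomycin ratios, Hps1-/- minus WT, was at least 1 on the log2 scale for 17 of the 42 genes and at most -1 for 0, beside 16.3% and 11.2% of all genes. The median difference was 0.88, against 0.15 for all genes. The larger ratio was in Hps1-/- libraries for 35 genes, beside 8239 of all 14840 genes. The largest differences were 1.81 for both Mcm5 and Cdc20, 1.79 for Ube2c, 1.61 for Plk1, 1.57 for Ccne1 and 1.52 for Uhrf1. By role, the median difference was 1.44 for mitotic kinase and APC/C genes, 1.14 for licensing genes, 0.94 for fork genes, 0.91 for cyclins and their regulators, 0.46 for spindle genes and 0.17 for mitotic chromatin genes, the last of which was -0.21 with total counts. This order did not hold for corrected ratios, where the medians were 1.06, 0.995, 1.21, 0.88, 1.01 and 0.94 in the same order of roles. With total counts, 11 genes differed by at least 1 and the median was 0.50, with -0.25 for all genes. Each of these differences rests on 4 single libraries.

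Hps1-/- and WT mice were then compared within each treatment. In PBS-HPS1 against PBS-WT, 0 of the 42 genes were 2-fold higher and 0 were 2-fold lower, where 2.16% of all genes were higher and 3.11% lower. The ratios were small and mostly on 1 side, with 40 of 42 genes below 0, beside 10501 of all 14840 genes. Their median was -0.47 (-0.19 for all genes), and they ranged from -0.86 for Ube2c to 0.26 for Cenpa. Cenpa, at 25.1 CPM in PBS-WT and 30.0 in PBS-HPS1, and Chek1, at 0.02, were the genes above 0. Tpx2 (-0.81), Aurkb (-0.77), Ccnb1 (-0.77), Nusap1 (-0.69) and Rrm2 (-0.67) had ratios near that of Ube2c. With total counts the median was -0.22, with 0.06 for all genes, and 6 genes were above 0. Markers of other cells moved too. Neutrophil markers went from 1397 CPM in PBS-WT to 409 in PBS-HPS1, with 8 of 8 at least 2-fold lower and a median ratio of -1.90. Macrophage and monocyte markers went from 13038.5 to 8848 CPM, and the part of these cells was not tested.

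In BLEO-HPS1 against BLEO-WT, 3 of the 42 genes were at least 2-fold higher and 0 were at least 2-fold lower, where 6.72% of all genes were higher and 10.3% lower. These were Mcm5, at 62.3 CPM in BLEO-WT and 160 in BLEO-HPS1 (log2 ratio 1.36, 1.31 to 1.41), Cdc20, at 25.5 and 59.6 CPM (1.23, 1.15 to 1.30), and Tyms, at 10.01 and 20.6 CPM (1.04, 0.91 to 1.17). Mcm2 and Uhrf1 were next, at 0.999 and 0.996, just under 2-fold. Just below them came Plk1 (0.97), Cdc6 (0.95), Ube2c (0.93) and Ccne1 (0.90). The median ratio was 0.41 (-0.04 for all genes) and 31 genes were above 0, beside 7093 of all 14840 genes. The share of genes past 2-fold, 7.14%, was near that of all genes. The lowest ratios were -0.69 for Bub1, -0.58 for Kif11, -0.44 for Chek1, -0.41 for Kif23 and -0.39 for Mcm4. After correction these ratios were -0.05, 0.11, 0.23, -0.03 and 0.06 in the same order. Then 39 of the 42 genes were above 0, beside 6558 of all 14813 genes. Of the genes past 2-fold, Cdc20 went to 0.71, and the 5 past 2-fold after correction were Tyms (1.27), Mcm5 (1.21), Cdc6 (1.18), Cdk1 (1.15) and Birc5 (1.10). Of all genes, 5.02% were then higher and 4.32% lower. With DESeq2's size factors 7 genes passed 2-fold. Fibroblast markers were at 557 CPM in BLEO-WT and 2735 in BLEO-HPS1, NK cell markers at 104 and 366, B cell markers at 170 and 390, and T cell markers at 800 and 1386 CPM. At least 2-fold higher were 7 of 8 fibroblast, 6 of 8 NK cell, 4 of 8 B cell and 2 of 10 T cell markers. Of the 8 neutrophil markers, 5 were lower and 1 higher, and the part of these cells in the ratios was not tested.

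**Figure D3:**
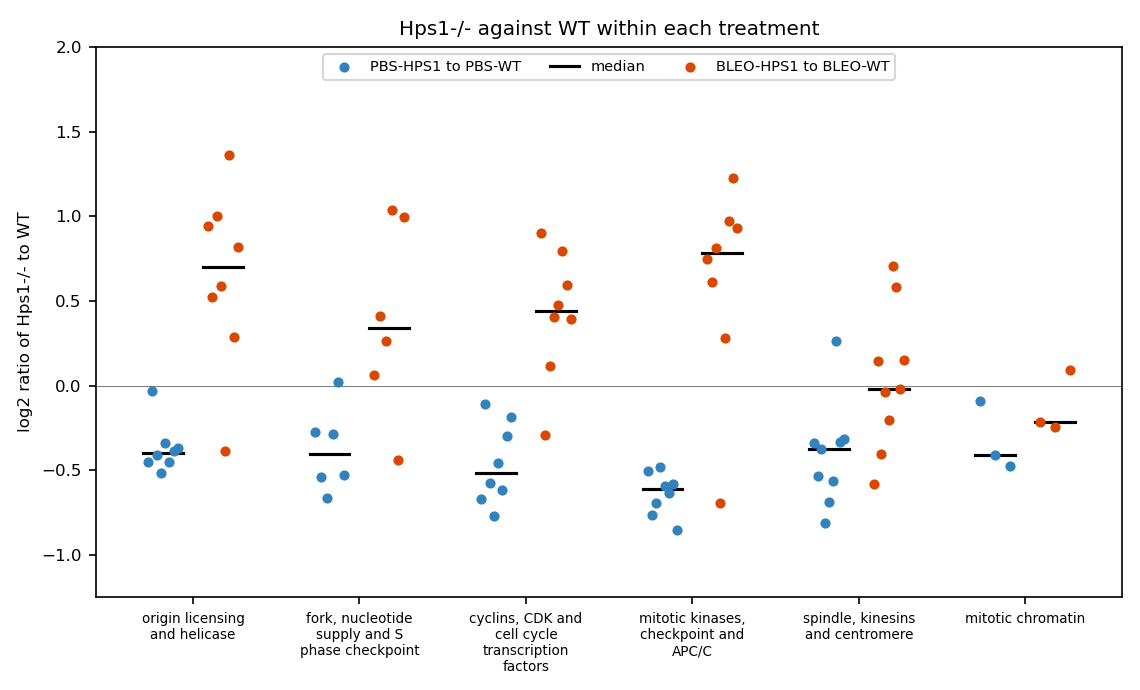
Log2 ratio of Hps1-/- to WT for the 42 genes by role, in PBS (blue) and bleomycin (orange) libraries, with a point for each gene and a line at each median. In PBS 40 genes lie below 0, and in bleomycin 31 lie above it, beside 10501 and 7093 of all 14840 genes.

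The bleomycin ratios of the 42 genes went with properties of sequence that the choice of genes did not use, GC content and length. Transcripts of the 42 genes held between 36.3% and 58.8% G and C bases (median 47.8%, 50.2% for all genes tested) and were between 1060 and 11130 bases long. Of the 42, 11 had under 45% GC, and their median log2 ratio of BLEO-HPS1 to PBS-HPS1 was -0.39. It was 1.22 for the 15 genes of 45 to 50% and 1.74 for the 16 genes of 50% or more. The medians of all genes in the same classes were -0.999, -0.08 and 0.83, so each class of cell cycle genes stood above the class it came from. The members with negative ratios were Ccne2 (36.3% GC), Chek1 (40.9%), Bub1 (41.0%), Kif11 (42.2%), Cenpe (43.0%), Cenpf (43.3%), Mcm4 (45.5%), Kif23 (46.3%) and Mki67 (46.6%). Ccne1, by contrast, had 52.7% GC and Mcm5 51.9%. Low GC content did not always go with a low ratio, since Ccnb1 (44.15% GC) was at 2.00 and Rrm1 (44.38%) at 1.39. Across the 42 genes, Spearman's rho of the ratio with GC content was 0.691 for bleomycin in Hps1-/- libraries and 0.591 for bleomycin in WT libraries. For genotype it was 0.768 after bleomycin and -0.188 after PBS. With transcript length, rho was -0.461 for bleomycin in Hps1-/- libraries and -0.484 in WT libraries. For genotype, rho with length was -0.4 after bleomycin and 0.211 after PBS. These points are genes of the same libraries, which are not independent, and the values are a description.

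Once the ratios of all genes were corrected for GC content and length, the 42 genes were closer to each other. In BLEO-HPS1 against PBS-HPS1, 29 genes were at least 2-fold higher, 24 of them among the 26 before correction, and 41 were above 0. Of all 14813 genes with a corrected ratio, 16.98% were higher and 7.89% lower, with a median of 0.30 and 9592 above 0. The median ratio of the 42 genes was 1.40 and the SD across the 42 genes went from 1.05 to 0.651. Mcm4 was then at 0.57, Mki67 at 0.70, Top2a at 1.44 and Hmgb2 at 1.63, and Kif23 was at -0.05. The cyclin E genes, on opposite sides of 0 before correction, had corrected ratios of 1.69 for Ccne1 and 0.94 for Ccne2. Birc5 (2.82), Cdk1 (2.75) and Ccnb1 (2.66) had the largest corrected ratios. Cdt1, at 58.8% GC, went from 1.01 to 0.25 and E2f1, at 58.3%, from 1.09 to 0.45. The difference between the bleomycin ratios was at least 1 for 22 genes after correction, 12 of them among the 17 before it, with a median of 1.04 and 41 genes above 0. Of all genes, 9.96% then differed by at least 1 and 5.69% by at most -1, with a median of 0.17 and 9105 above 0. The corrected medians were 0.39 in BLEO-WT against PBS-WT, -0.53 in PBS-HPS1 against PBS-WT and 0.46 in BLEO-HPS1 against BLEO-WT. Whether the relation with GC content came from the libraries or from the cells was not tested.

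**Figure D4:**
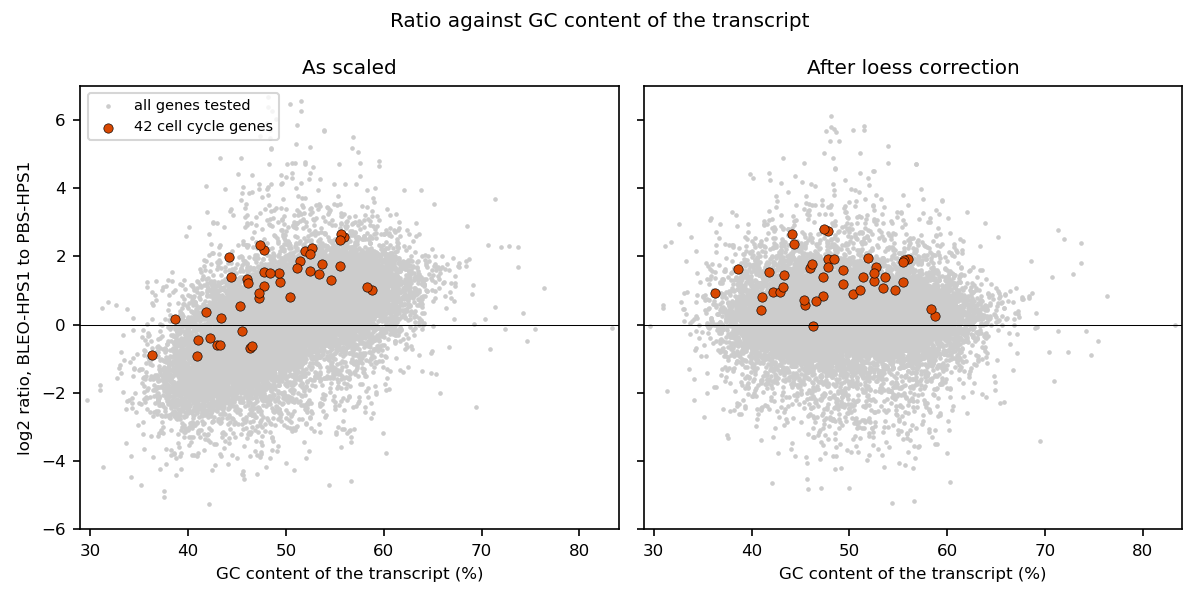
Log2 ratio of BLEO-HPS1 to PBS-HPS1 against the GC content of the transcript, as scaled (left) and after loess correction (right), for all genes tested (grey) and the 42 cell cycle genes (orange). Before correction the ratios go up with GC content in both sets. After it, 41 of the 42 genes lie above 0, as do 9592 of all 14813 genes.

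The promoters of the genes were searched for the letters of factors known to act on cell cycle genes. RefSeq windows of GRCm38.p6, from 250 bases before to 50 after a start site, were found for 34 of the 42 genes, 36 windows in all. Motifs were searched on both strands as TTTGAA (CHR), CCAAT, and TTTGGCGC, TTTCCCGC, TTTCGCGC or TTTGCCGC (E2F). A CHR match was found in 15 of 36 windows, beside 17.9% of 32851 windows of all genes, and a CCAAT match in 28, beside 37.4%. An E2F match was found in 8 windows, beside 2.26%, and both CHR and CCAAT in 15, beside 6.95%. E2F letters were in 6 of 7 licensing genes with a window, 1 of 6 fork genes, 1 of 5 cyclins and their regulators, and 0 genes of the other roles. CHR letters were in 5 of 7 mitotic kinase and APC/C genes, 4 of 6 spindle genes and 3 of 3 mitotic chromatin genes. They were also in 2 of 5 cyclins and their regulators and 1 of 7 licensing genes, and in 0 of 6 fork genes. The windows below are those of the genes with the largest differences between the bleomycin ratios, among genes with an E2F match or with both CHR and CCAAT matches. Matched letters are in capitals, read 5′ to 3′ on the strand of the gene.
Mcm5 (chr8:75109259-75109558, plus strand): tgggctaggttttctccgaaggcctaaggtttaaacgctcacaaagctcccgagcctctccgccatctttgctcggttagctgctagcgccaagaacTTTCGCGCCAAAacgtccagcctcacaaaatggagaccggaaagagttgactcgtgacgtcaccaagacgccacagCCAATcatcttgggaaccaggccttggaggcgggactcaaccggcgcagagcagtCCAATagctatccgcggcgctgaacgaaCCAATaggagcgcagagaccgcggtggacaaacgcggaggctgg
Cdc20 (chr4:118437294-118437593, minus strand): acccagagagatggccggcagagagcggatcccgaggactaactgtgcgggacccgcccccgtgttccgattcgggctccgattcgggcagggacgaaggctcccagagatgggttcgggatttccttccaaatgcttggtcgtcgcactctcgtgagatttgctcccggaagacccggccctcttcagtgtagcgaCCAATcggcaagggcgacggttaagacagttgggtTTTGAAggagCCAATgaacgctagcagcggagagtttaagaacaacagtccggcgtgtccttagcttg
Ube2c (chr2:164769679-164769978, plus strand): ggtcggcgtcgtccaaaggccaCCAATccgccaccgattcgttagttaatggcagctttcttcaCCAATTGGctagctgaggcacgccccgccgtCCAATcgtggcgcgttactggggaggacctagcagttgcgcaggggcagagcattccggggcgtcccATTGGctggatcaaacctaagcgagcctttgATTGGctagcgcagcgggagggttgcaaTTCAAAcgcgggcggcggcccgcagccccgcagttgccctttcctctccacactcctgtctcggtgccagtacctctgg
Plk1 (chr7:122159185-122159484, plus strand): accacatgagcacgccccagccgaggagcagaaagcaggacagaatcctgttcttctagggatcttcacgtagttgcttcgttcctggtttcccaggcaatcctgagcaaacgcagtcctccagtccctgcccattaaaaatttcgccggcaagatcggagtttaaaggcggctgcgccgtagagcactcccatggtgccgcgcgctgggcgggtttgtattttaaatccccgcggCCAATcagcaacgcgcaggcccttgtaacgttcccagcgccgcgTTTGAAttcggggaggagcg
In Mcm5 the long run of capitals holds 2 E2F matches on opposite strands that overlap, followed by 3 CCAAT boxes. The Cdc20 window holds 1 CHR between 2 CCAAT boxes, Ube2c holds 6 CCAAT matches on either strand and 1 CHR, and Plk1 holds 1 of each. Mki67, Top2a and Hmgb2, whose ratios of BLEO-HPS1 to PBS-HPS1 were between -0.64 and 0.20, also carried CHR and CCAAT letters. A match is a description of letters, not of binding.

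Other genes of the same pathways were described from lists that hold none of the 42 genes. Of 50 other replication genes, 21 were at least 2-fold higher and 4 lower in BLEO-HPS1 than in PBS-HPS1, with a median ratio of 0.80. That is 42% higher and 8% lower, beside 26.2% and 19.6% of all genes, whose median was 0.25. The largest ratios were of Gins2 (2.27), a subunit of the active helicase, and Chaf1b (2.12) and Asf1b (1.99), which place histones behind the fork. Gins2 was at 7.34 and 4.35 CPM in PBS-WT and PBS-HPS1, and 10.3 and 21.02 CPM in BLEO-WT and BLEO-HPS1, in the order common to most of the 42 genes. In BLEO-HPS1 against BLEO-WT, 3 of the 50 passed 2-fold, a share of 6% that was near the 6.72% of all genes. These were Pold2 (1.26), a subunit of DNA polymerase delta, Gins2 (1.02) and Dut (1.005), which removes dUTP. In WT libraries 1 of the 50 was lower after bleomycin, Hells (-1.07), a chromatin remodeller, and 0 were higher. That is 2% lower, beside 8.22% of all genes. The genes that were lower in Hps1-/- libraries after bleomycin were subunits of the origin recognition complex, Orc3 (-1.21) and Orc4 (-1.49), and the kinase that fires origins with its activator, Cdc7 (-1.15) and Dbf4 (-1.44). These 4 genes were chosen after their values were seen. After correction for GC content and length, 17 of the 50 (34%) were at least 2-fold higher and 0 lower, beside 16.98% and 7.89% of all genes. Orc3 was then at -0.45, Orc4 at 0.43, Cdc7 at -0.59 and Dbf4 at -0.83. Hells was then at -0.08 in WT libraries. Between the bleomycin libraries 0 of the 50 passed 2-fold, beside 5.02% of all genes higher and 4.32% lower.

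Of 68 other mitosis genes, 27 were at least 2-fold higher and 5 lower in BLEO-HPS1 than in PBS-HPS1. That is 39.7% higher and 7.35% lower, beside 26.2% and 19.6% of all genes. Their median was 0.56, which was -0.08 with total counts. Spc24, an outer kinetochore subunit, was at 5.97 and 3.09 CPM in PBS-WT and PBS-HPS1, and 9.68 and 23.7 CPM in BLEO-WT and BLEO-HPS1 (log2 ratio 2.93), and Cdca3 (2.60) and Cenpm (2.58) followed. Espl1, the separase that cuts cohesin, had the larger ratio (1.55) of the 2 genes past 2-fold upwards in WT mice after bleomycin, the other being Melk (1.02), and Knl1 (-1.10) and Smc4 (-1.77) were the 2 that were lower. Both shares in WT libraries, 2.94% higher and 2.94% lower, were below the 5.28% and 8.22% of all genes. Smc4, a condensin subunit, was at 141, 130, 41.3 and 36.3 CPM, low in both bleomycin libraries. In BLEO-HPS1 against BLEO-WT, 4 of the 68 were higher and 1 lower, the condensin II subunit Ncapg2 (-1.09). These shares, 5.88% and 1.47%, were below the 6.72% and 10.3% of all genes. After correction, 38 of the 68 genes (55.9%) were at least 2-fold higher and 0 lower in BLEO-HPS1 against PBS-HPS1, beside 16.98% and 7.89% of all genes. In WT libraries Smc4 was then at -1.05 and Knl1 at -0.07. Between the bleomycin libraries 1 of the 68 passed 2-fold, Cenpw (1.14), chosen after its value was seen, and Ncapg2 was at -0.51. That is 1.47% higher, beside 5.02% of all genes.

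Of 31 regulators of the G1 phase, 8 were higher and 7 lower in BLEO-HPS1 than in PBS-HPS1. These shares, 25.8% and 22.6%, were near the 26.2% and 19.6% of all genes. After correction 5 (16.1%) were higher and 0 lower, beside 16.98% and 7.89% of all genes. Cdkn1a (p21), the CDK inhibitor induced by p53 after DNA damage, was at 274 and 327 CPM in PBS-WT and PBS-HPS1, and 702 and 604 CPM in BLEO-WT and BLEO-HPS1. Both bleomycin libraries were thus above both PBS libraries, with log2 ratios of 1.35 in WT and 0.88 in Hps1-/- libraries. Mybl2 (B-MYB), which acts at CHR promoters, was at 4.81, 3.96, 10.8 and 23.1 CPM, with ratios of 1.16 and 2.54, and it passed 2-fold over BLEO-WT as well (1.10, and 0.76 after correction). Its relative Mybl1 had ratios of -1.34 and -1.31, which were -0.29 and 0.67 after correction. Cdk4, the kinase of cyclin D, was at 64.5, 42.9, 91.8 and 157 CPM (ratios 0.51 and 1.87), and the inhibitor Cdkn2c had ratios of 0.82 and 1.81. Cdk6, the other cyclin D kinase, was at 53.8, 62.9, 46.2 and 19.7 CPM, with ratios of -0.22 and -1.67 and, between the bleomycin libraries, -1.22. The corrected ratios of Cdk6 were 0.29, -0.12 and -0.47 in the same order. Cdkn2a was higher in BLEO-HPS1 than BLEO-WT (1.47, and 0.76 after correction) at a low level, 1.88 and 0.66 CPM. Cdkn1b (p27), an inhibitor of resting cells, was at 206, 201, 143 and 98.03 CPM, with ratios of -0.53 and -1.04, and -0.06 and 0.16 after correction. Of the D cyclins, Ccnd1 was at 58.5, 37.9, 54.0 and 73.4 CPM, Ccnd2 at 235, 226, 138 and 125 CPM and Ccnd3 at 181, 153, 175 and 284 CPM.

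IL-2 was in the culture medium of the sorted cells, and 25 genes of its receptor, signalling and downstream growth were listed for that reason. In BLEO-HPS1 against PBS-HPS1, 8 were higher and 4 lower (32% and 16%, beside 26.2% and 19.6% of all genes), with a median of 0.46 that was -0.18 with total counts. After correction 1 was higher and 1 lower, Il2ra and Mycn, with a median of 0.27. That is 4% each way, beside 16.98% and 7.89% of all genes. Il2ra, the high-affinity receptor chain, was at 23.0, 16.4, 27.9 and 23.9 CPM in PBS-WT, PBS-HPS1, BLEO-WT, then BLEO-HPS1. Myc was at 45.2, 46.8, 46.4 and 37.7 CPM, and neither gene was 2-fold apart between any of the compared libraries before correction. The corrected ratio of Il2ra in BLEO-HPS1 against PBS-HPS1 was 1.56, the highest of the list, and that of Myc was -0.80. Of the listed feedback inhibitors of cytokine signalling, Socs3 and Cish were at least 2-fold higher after bleomycin in both genotypes. They were the only 2 of the 25 genes that high in WT libraries, so Socs1 and Socs2 were not. Socs3 had ratios of 1.73 in WT and 1.58 in Hps1-/- libraries, and Cish, a target of STAT5, had 1.01 and 1.02. The corrected ratios were 1.55 and 0.90 for Socs3 and 0.85 and 0.46 for Cish. Mycn was lower in both (-1.23 and -1.26) at under 2 CPM. Tfrc, the transferrin receptor, was at 25.9, 23.1, 19.1 and 6.62 CPM, a ratio of -1.80 in Hps1-/- libraries and -1.52 between the bleomycin libraries. Rps6kb1 (-1.04) and Mcl1 (-1.05) were also lower in BLEO-HPS1 than in BLEO-WT. After correction Tfrc was at -0.15 and -0.77 in these comparisons, and 0 of the 25 genes passed 2-fold between the bleomycin libraries.

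Of 15 genes of lymphocyte quiescence, 0 were higher and 4 lower in BLEO-HPS1 than in PBS-HPS1, with a median ratio of -0.52. That is 26.7% lower, beside 26.2% of all genes higher and 19.6% lower, with a median of 0.25. Tob1, an antiproliferative protein of resting T cells, was at 107 and 145 CPM in PBS-WT and PBS-HPS1, and 97.4 and 44.1 CPM in BLEO-WT and BLEO-HPS1 (log2 ratio -1.71 in Hps1-/- libraries). Pdcd4 (-1.30) and Klf6 (-1.14) were lower too. Between the bleomycin libraries 5 of the 15 were lower, with Klf6 (-1.23), Klf4 (-1.17) and Tob1 (-1.14) the furthest apart, beside 10.3% of all genes. After correction 2 of the 15 (13.3%, beside 4.32% of all genes) were lower, Klf4 (-1.498) and Btg2 (-1.03), while Klf6 was at -0.58 and Tob1 at -0.89. In BLEO-WT against PBS-WT 0 of the 15 passed 2-fold in either direction. After correction for GC content and length, 1 of the 15 was lower in BLEO-HPS1 than in PBS-HPS1, Tob1 (-1.30), and the median was -0.06. That share, 6.67%, was near the 7.89% of all genes.

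**Figure D5:**
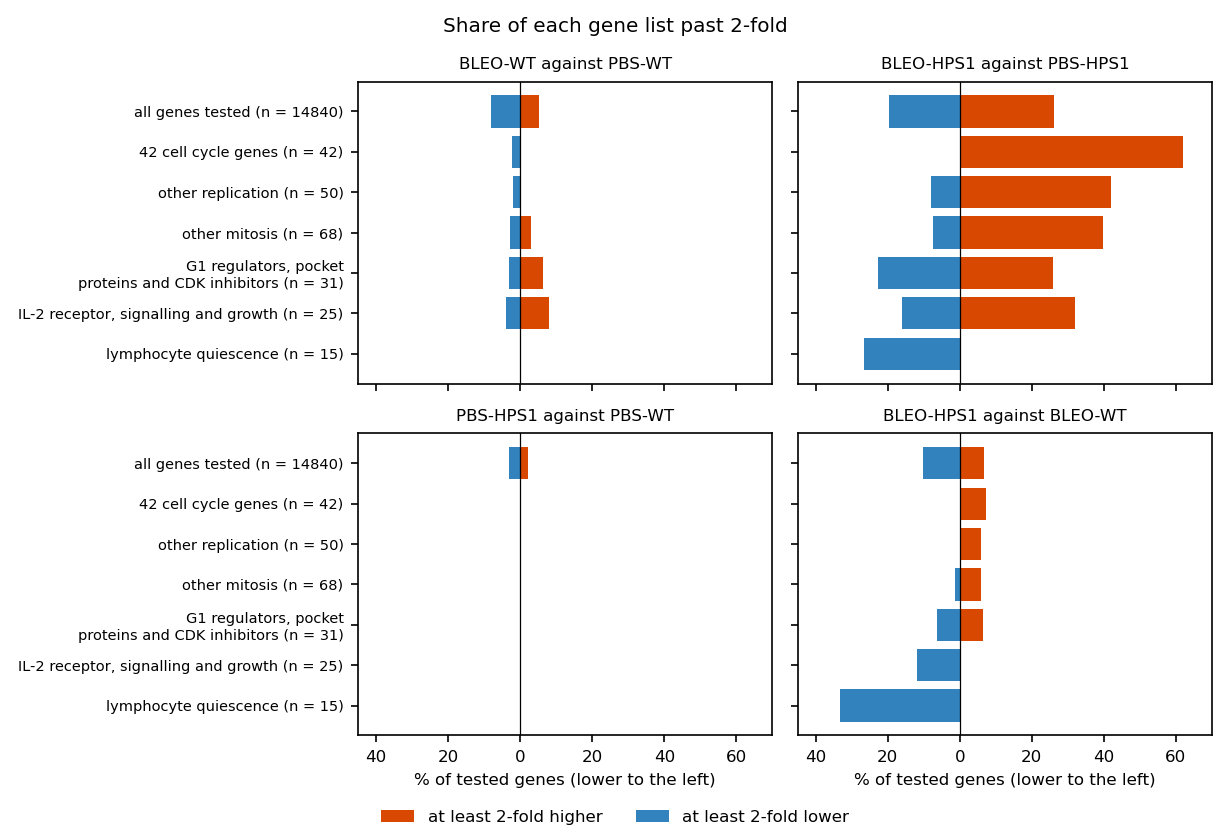
Percent of genes at least 2-fold higher (orange, right) and lower (blue, left) in each comparison, for all 14840 genes tested, the 42 cell cycle genes and 5 other gene lists. In BLEO-HPS1 against PBS-HPS1 the 42 genes have 61.9% higher and 0 lower, beside 26.2% and 19.6% of all genes.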

How the data were processed

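Sorted mouse lung ILC2s, kept in medium with IL-2, gave 1 RNA library in each of the groups PBS-WT, PBS-HPS1, BLEO-WT, BLEO-HPS1, made with a SMARTER mRNA kit. The authors deposited raw counts of reads for each Ensembl gene without normalization. The aligner, counting tool, genome build and annotation were not given in the sources used here. Counts were scaled with TMM factors of edgeR 4.0.16 in R 4.3.3 (1.08, 1.27, 0.895 and 0.816, in the order above), and log2 ratios with a prior count of 2 were taken for the 14840 genes that reached 1 CPM in some library. Without replicates no quasi-likelihood test was possible. Identifiers were matched to GENCODE M21 (GRCm38, 48970 of 49315 found), whose longest protein-coding transcript gave length and GC content. The loess span was 0.3. The TMM scaling, ratios, loess correction and intervals were tested on simulated counts, and the other steps were not. The 42 genes and the lists were chosen with earlier results of these data known. Named genes were all 42, in each other list up to 3 past 2-fold with the largest ratios in a comparison, Cdkn1a, Cdkn1b, Myc, Il2ra and the D cyclins, and the leading markers. A total of 3 listed names found no row and were not used here. Alternatives were DESeq2 1.42.0 size factors, total counts, a prior count of 0.5 or 10, the table without any filter or with a filter of 10 reads per library, the loess correction, leaving out Hmgb2 and Stmn1, and a 4-fold threshold.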

Additional observations from a re-analysis of the deposited data

Results flagged for a closer look

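Several groups of the cell cycle genes had median log2 ratios of opposite sign under the same contrast, and with 1 library a group none of these differences was tested. The ratio of Hps1-/- to WT was above 0 with bleomycin and below 0 with PBS for all 42 genes together (0.41 and -0.47, 0.87 apart). The same held for the licensing genes (0.70 and -0.40, 1.10 apart), the fork genes (0.34 and -0.41, 0.74 apart), cyclins and their regulators (0.44 and -0.52, 0.96 apart) and the mitotic kinase and APC/C genes (0.78 and -0.61, 1.39 apart). It also held for the list of other replication genes (0.18 and -0.33, 0.51 apart).

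The ratio of bleomycin to PBS was above 0 in Hps1-/- and below 0 in WT libraries for the spindle genes (0.36 and -0.12, 0.48 apart) and the mitotic chromatin genes (0.18 and -0.39, 0.57 apart). With total counts both Hps1-/- medians, for spindle and for chromatin genes, were below 0. After correction for GC content and length both medians were above 0, 1.01 in Hps1-/- and 0.41 in WT libraries for spindle genes and 1.44 and 0.39 for chromatin genes, so the opposite signs were lost. For the quiescence list the signs were the other way round, -0.52 in Hps1-/- and 0.04 in WT libraries, a difference of -0.56, and with total counts both were below 0. After correction they were -0.06 and 0.17.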

How the results depend on the processing

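The medians over the 42 genes kept their sign under every alternative run. Counts are given as genes at least 2-fold higher unless said otherwise. With total counts alone, the counts were 13 higher and 8 lower in BLEO-HPS1 against PBS-HPS1 and 2 lower in BLEO-WT against PBS-WT, and 11 genes differed by at least 1 between the bleomycin ratios. The medians were then 0.63, 0.0567 in BLEO-WT against PBS-WT, -0.22 in PBS-HPS1 against PBS-WT, 0.275 in BLEO-HPS1 against BLEO-WT and 0.50 for the difference. With DESeq2's size factors 7 genes were higher in BLEO-HPS1 against BLEO-WT, and the medians were 0.30 in BLEO-WT against PBS-WT, -0.43 in PBS-HPS1 against PBS-WT, 0.47 in BLEO-HPS1 against BLEO-WT and 0.91 for the difference. With the loess correction 1 gene was higher and 0 lower in BLEO-WT against PBS-WT and 5 were higher in BLEO-HPS1 against BLEO-WT. Its medians were 0.39, 1.40 in BLEO-HPS1 against PBS-HPS1, -0.53, 0.46 and 1.04 for the difference. A prior count of 10 gave a median of 1.26 in BLEO-HPS1 against PBS-HPS1. At 4-fold in place of 2-fold, 8 genes were higher in BLEO-HPS1 against PBS-HPS1, and 0 were called in the other comparisons or for the difference. Leaving out the filter or asking for 10 reads per library could not move these values. Scaling came before the filter, and none of the 42 genes had fewer than 93 reads. A prior count of 0.5 changed no count. Leaving out Hmgb2 and Stmn1 gave 25 genes higher in BLEO-HPS1 against PBS-HPS1 and 16 for the difference. Under both, the medians moved less than the counting error of the summed reads. Beyond the total counts and loess settings, whose construction shifts or bends all ratios, the cause was not tested. Leaving out a replicate could not be done with 1 library a group. No paired analysis was possible because each group had 1 library. The fewest reads of any of the 42 genes in a library were 93, and the part of depth was not tested.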
